A study of Mus musculus with 10 samples.

Results

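Schwann cell and nerve markers were followed in whole mouse aorta through 8 genes listed by name: Mbp, Pmp22, Prx, Ncam1, Sox10, S100b, Prph and Th. The genes were listed by name and no measured value entered the rule, but the list was drawn up with earlier results of these data known. Of these, 7 were measured by 26 probe sets, out of 18193 genes and 45037 non-control probe sets in all, and Prx was not analysed here. A probe set is a group of short DNA probes on the array that read the RNA of 1 gene. The arrays were Affymetrix MOE 430V2 chips, 5 from NPAS2 mutant mice and 5 from wild type mice.

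NPAS2 is a transcription factor of the circadian clock that acts as a partner of BMAL1 in place of CLOCK. The mutant mice were on a C57Bl/6J background and the wild type mice were C57Bl/6. The nature of the mutation and the age of the mice were not given in the sources used here. All mice were male, had lived for 2 weeks under a cycle of 12 h light and 12 h dark, had then stayed in the dark for 30 h or longer, and were killed at zeitgeber time 14, that is 14 h after the usual time of lights on. The vessels were perfused with saline. The labels call the tissue thoracic aorta in 1 place and elsewhere describe a longer piece, from the arch to beyond the branching of the femoral arteries. They do not say that each array came from a separate mouse, so the p-values here measure the spread between these arrays.

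The wall of the aorta is supplied by nerve bundles that run in its outer coat. Their axons are wrapped by Schwann cells, which either build a myelin sheath around a single large axon or hold several thin axons without myelin. Most axons that reach arterial smooth muscle are sympathetic: they make noradrenaline, store it in vesicles, release it onto the muscle and take it up again. Mbp, Pmp22 and Prx are genes of the myelin sheath, Sox10 and S100b mark the Schwann cell lineage, Ncam1 is an adhesion molecule of non-myelinating Schwann cells and axons, Prph is an axonal filament, and Th is the rate-limiting enzyme of noradrenaline synthesis. In whole tissue, fewer cells of a type and less RNA per cell cannot be told apart.

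No probe set of the 7 genes passed the test between NPAS2 mutant and wild type aortas, while Mbp, Prph and Th each spread over more than 2 log2 units between the 10 arrays. Of the 26 probe sets, 18 entered the test, which covered 22340 probe sets in all; the filter asked for a level over the median of the array on 5 or more of the 10 arrays. With limma, 0 of the 18 had an adjusted p below 0.05, and the lowest was 0.259. By the same rule 48 of all probe sets tested passed, or 0.215%, with 0.094% higher and 0.121% lower in mutants. At an unadjusted p below 0.05 there were 3 of 18, or 16.7%, against 15.3% of all probe sets tested, so the share among the nerve markers was near the background. All 3 were probe sets of Ncam1 that were lower in mutants, a direction that 10.6% of all probe sets tested took at that threshold, while 4.75% were higher. Of the 18, 9 were higher and 9 were lower in the mutants, with differences of -0.50 to 0.36 on the log2 scale. Of all probe sets tested, 57.6% were lower. Of the 18, 0 had groups that did not overlap, against 4.01% of all probe sets tested.

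**Figure D1:**
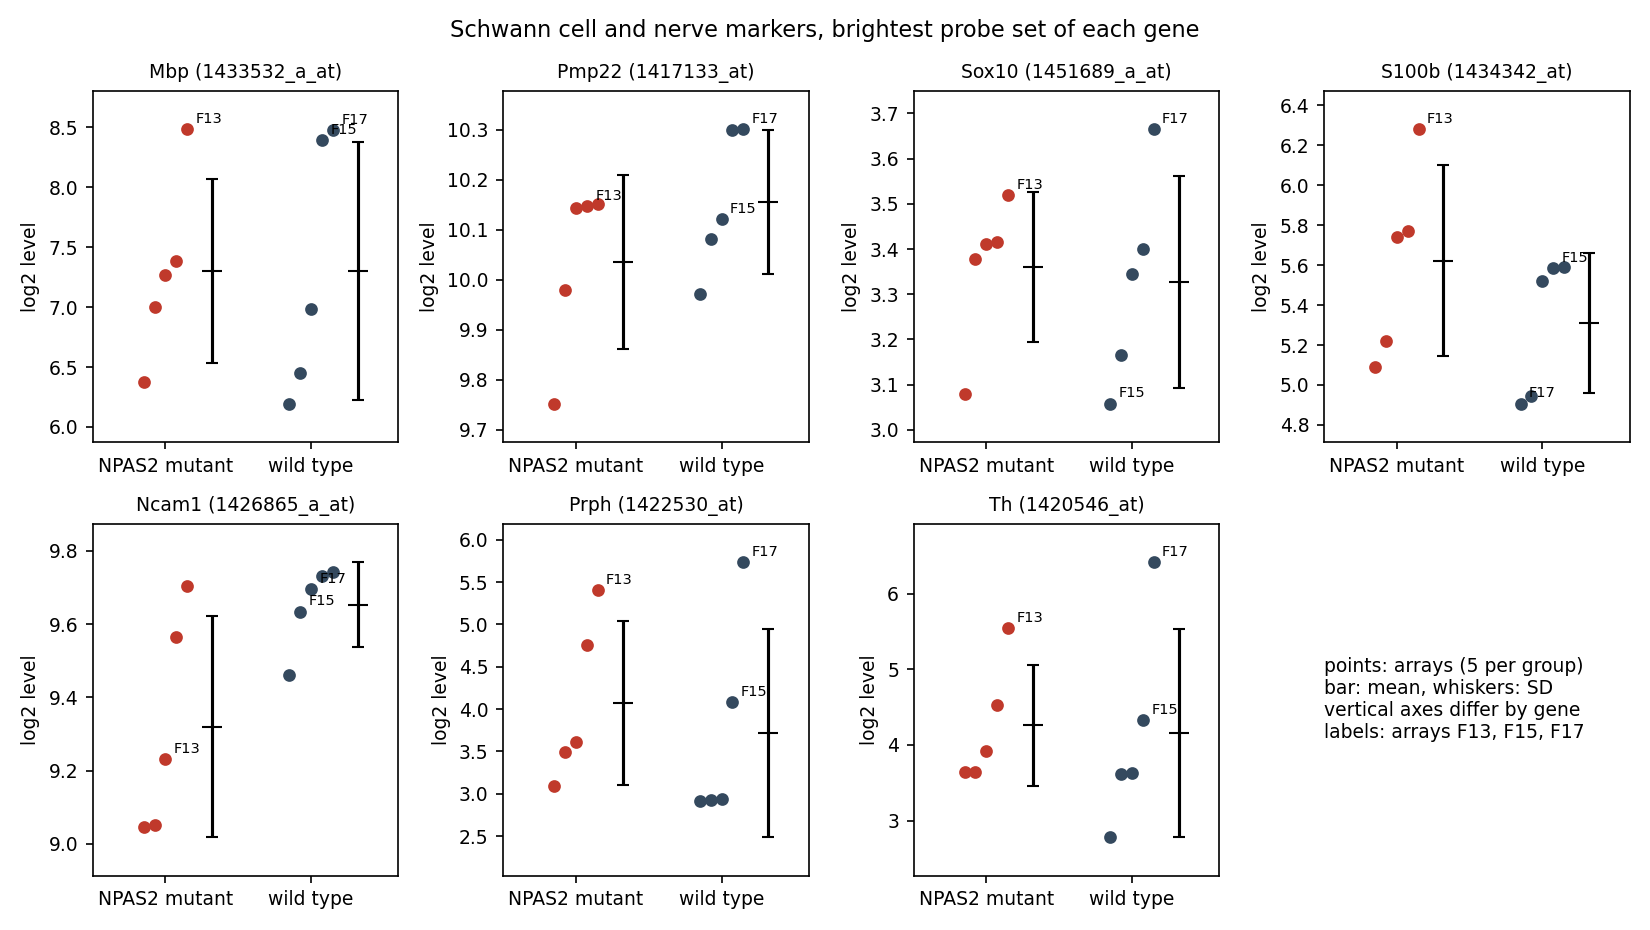
Log2 level of the brightest tested probe set of each of the 7 genes on every array, with NPAS2 mutant arrays at the left of each panel and wild type arrays at the right; points are arrays and the bar and whiskers are the mean and SD (n = 5 each). The groups overlap in every panel, and Mbp, Prph and Th are high on mutant F13 and wild type F17.

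Mbp encodes myelin basic protein, which compacts the myelin sheath. Its brightest probe set, 1433532_a_at, read 7.27, 8.49, 6.38, 7.00 and 7.38 log2 units on mutant arrays F12, F13, F18, F19 and F20. On wild type arrays F11, F14_2, F15, F16 and F17 it read 6.19, 6.98, 8.39, 6.45 and 8.48. Mutant F13 and wild types F15 and F17 were high, and both groups also held arrays with low levels. The means were 7.30 ± 0.77 in mutants and 7.30 ± 1.08 in wild types (SD, n = 5 each). The difference was 0.00 log2 units with an SE of 0.51 and a 95% confidence interval of -1.13 to 1.14, and limma gave an adjusted p of 0.998. That interval leaves room for a change of more than 1 log2 unit in either direction. The highest array held 4.90 times the level of the lowest, and the spread within groups was larger than that of 99.6% of all probe sets tested.

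The other 6 tested probe sets of Mbp gave differences of -0.08 to 0.19 log2 units, none of which passed the test. They followed the same arrays: the correlation between the 7 probe sets over the 10 arrays lay between 0.39 and 0.98, with a median of 0.91 over 21 pairs. These probe sets share the gene and the arrays, so they are not separate evidence.

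Pmp22 encodes a membrane protein of peripheral myelin that many other cell types also make. Probe set 1417133_at read 9.75, 10.15, 10.15, 9.98 and 10.14 log2 units on the 5 mutant arrays in the same order. The wild type arrays read 10.08, 9.97, 10.12, 10.30 and 10.30. The groups overlapped, and the arrays high in Mbp did not stand apart from the others. The difference was -0.12 log2 units (SE 0.10, 95% confidence interval -0.34 to 0.09, adjusted p = 0.554 with limma). The spread of Pmp22 within groups lay near the middle of all probe sets tested, above 49.5% of them.

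Sox10 is the transcription factor that Schwann cells need at every stage of their development. Only 1 of its 3 probe sets, 1451689_a_at, passed the filter. It read 3.08, 3.52, 3.41, 3.38 and 3.42 log2 units in mutants and 3.40, 3.35, 3.06, 3.17 and 3.67 in wild types. The groups covered the same range, wild type F17 was highest and wild type F15, which was high in Mbp, was lowest. The difference was 0.03 log2 units (SE 0.12, 95% confidence interval -0.23 to 0.30, adjusted p = 0.908 with limma). The array medians lay between 3.14 and 3.20, so these readings were close to the filter.

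S100b encodes a calcium-binding protein of Schwann cells that fat cells also make. Its probe set 1434342_at read 5.77, 6.28, 5.22, 5.09 and 5.74 log2 units in mutants and 5.59, 5.52, 5.58, 4.95 and 4.91 in wild types. Mutant F13 was again highest, but wild type F17 was lowest, unlike for Mbp, Prph and Th. The difference was 0.31 log2 units (SE 0.23, 95% confidence interval -0.20 to 0.83, adjusted p = 0.527 with limma). The second probe set, 1419383_at, gave a difference of 0.22 with an adjusted p of 0.491 and followed the first over arrays with r = 0.81.

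Ncam1, which joins axons and Schwann cells to each other, was the member whose tested probe sets lay farthest apart between the groups relative to their spread, without passing the test. Probe set 1426865_a_at read 9.05, 9.23, 9.56, 9.71 and 9.05 log2 units in mutants. It read 9.74, 9.46, 9.63, 9.73 and 9.70 in wild types. Mutants F12, F13 and F20 lay below all wild type arrays, while F18 and F19 lay among them. The means were 9.32 ± 0.30 in mutants and 9.65 ± 0.12 in wild types (SD, n = 5 each), a difference of -0.33 log2 units (SE 0.13, 95% confidence interval -0.62 to -0.04). The unadjusted p was 0.0285 and the adjusted p 0.265 with limma. The remaining 3 tested probe sets gave differences of -0.25, -0.23 and -0.50 log2 units, with adjusted p of 0.294, 0.360 and 0.259. The median difference of all probe sets tested was -0.03.

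Markers of brown fat were read beside Ncam1. The mean of 10 brown fat genes was 9.29 ± 0.30 in mutants and 8.51 ± 0.24 in wild types (SD, n = 5 each), with ranges of 8.94 to 9.70 and 8.11 to 8.68 that did not overlap. All 10 genes were higher in mutants, 8 of them at an unadjusted p below 0.05, and 0 passed the adjusted test. Over the 10 arrays Ncam1 correlated with that mean at r = -0.80 (permutation p = 0.00576, adjusted p = 0.0358 over 84 pairs of a member and a list; rho = -0.73, permutation p = 0.02075, adjusted p = 0.0758). Without the 2 arrays farthest from the median of Ncam1 r was -0.66, and on deviations from the group means it was -0.63 (permutation p = 0.0505, adjusted p = 0.177). The relation thus passed by Pearson correlation over all arrays, but neither by rank nor on deviations from the group means. With the brown fat mean as a covariate, 3 of the 4 tested probe sets of Ncam1 changed sign, to 0.09, 0.07 and 0.04. The fourth, 1450437_a_at, moved the other way, from -0.23 to -0.41. Because the brown fat means of the groups did not overlap, this covariate and genotype cannot be told apart cleanly. The part of brown fat in the Ncam1 difference was not tested.

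Prph and Th are the axonal members. The RefSeq promoters of both are shown because these genes moved together over the arrays. Each is the 250 bases upstream of the transcription start in GRCm38.p6, 5′ to 3′ on the gene's strand. Th lies at chr7:142899996-142900245 on the minus strand and Prph at chr15:99054924-99055173 on the plus strand. Capitals mark a cAMP response element (TGACGTCA) in Th and a TATA box (TATAAA) in Prph.
Th: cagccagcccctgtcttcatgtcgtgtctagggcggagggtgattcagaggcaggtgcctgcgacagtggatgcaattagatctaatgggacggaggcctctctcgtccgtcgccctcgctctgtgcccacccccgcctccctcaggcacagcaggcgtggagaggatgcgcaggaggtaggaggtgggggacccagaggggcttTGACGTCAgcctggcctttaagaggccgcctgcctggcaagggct
Prph: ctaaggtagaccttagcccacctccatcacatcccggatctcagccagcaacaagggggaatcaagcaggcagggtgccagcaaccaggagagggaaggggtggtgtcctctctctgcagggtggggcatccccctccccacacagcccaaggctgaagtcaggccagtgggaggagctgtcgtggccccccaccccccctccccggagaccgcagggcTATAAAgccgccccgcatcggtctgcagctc

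The element in Th starts 45 bases upstream of the transcription start and the TATA box in Prph 31 bases upstream. Searched on both strands over 32851 promoters of that length, the cAMP response element occurred in 1.55% and the TATA box in 12.4%. Both were searched for after the values had been seen. For the listed genes, promoters on chromosome 18 were left out, and those of Mbp, Ncam1 and Sox10 were not searched. The E-box CACGTG, the kind of site that NPAS2 and its partners bind, was in 0 of the 8 promoters searched for 5 of the listed genes (Prx, Th, S100b, Prph and 4 of Pmp22), against 6.02% of all promoters. The SOX motif ACAAAG was also in 0 of the 8, against 16.5%. No match says only that these letters are not in these windows.

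Prph encodes peripherin, an intermediate filament of peripheral axons. Probe set 1422530_at read 3.61, 5.41, 3.09, 3.50 and 4.76 log2 units in mutants. It read 2.92, 2.93, 4.08, 2.92 and 5.73 in wild types. Mutants F13 and F20 and wild types F15 and F17 were high, and wild types F11, F14_2 and F16 were lowest. The difference was 0.36 log2 units (SE 0.61, 95% confidence interval -0.98 to 1.70, adjusted p = 0.795 with limma). The arrays spanned 2.81 log2 units, and the spread within groups exceeded that of 99.7% of all probe sets tested. The lowest readings lay below the array medians, so no fold is given. A second tested probe set, 1420256_x_at, gave -0.09 with an adjusted p of 0.786 and did not follow the first over arrays (r = -0.22), so the probe sets of Prph disagree.

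Th encodes tyrosine hydroxylase. Probe set 1420546_at read 3.93, 5.55, 3.64, 3.64 and 4.53 log2 units in mutants. It read 3.63, 2.79, 4.33, 3.62 and 6.41 in wild types. The highest and the lowest array were both wild type, F17 and F14_2, and the mutant range lay inside the wild type range. The difference was 0.10 log2 units (SE 0.62, 95% confidence interval -1.26 to 1.47, adjusted p = 0.951 with limma). The arrays spanned 3.63 log2 units down to a reading below the array medians, the spread within groups exceeded that of 99.7% of all probe sets tested, and genotype accounted for 0.255% of the variance.

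**Figure D2:**
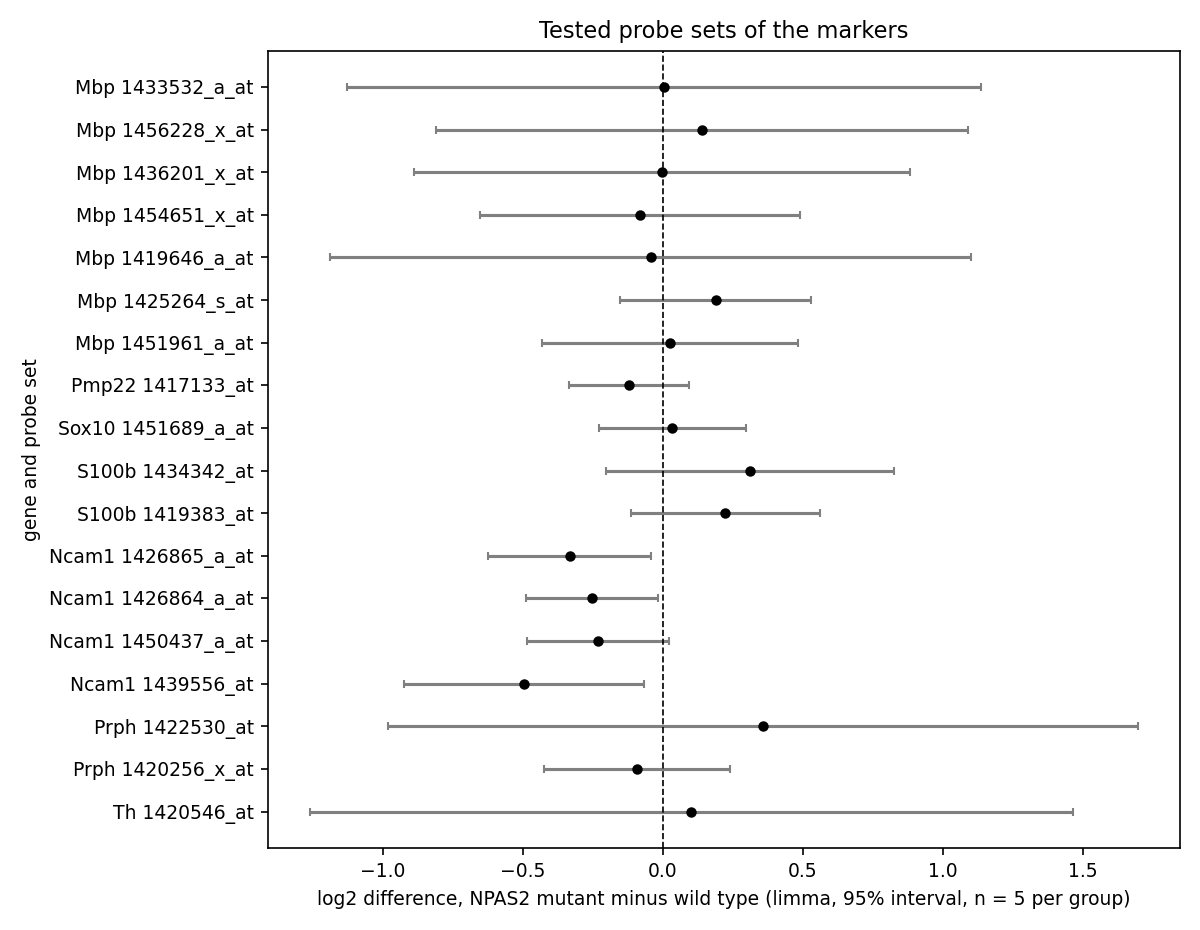
Difference in log2 level, NPAS2 mutant minus wild type, with its 95% confidence interval for each tested probe set of the 7 genes. All intervals of Mbp, Prph and Th cross 0; those of 3 Ncam1 probe sets do not, at unadjusted p, and none passes after adjustment.

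Prph and Th moved together over the 10 arrays. Their correlation was r = 0.95 (permutation p = 4e-05, adjusted p = 0.00084 over 21 pairs of members) and rho = 0.95 (permutation p = 0.00014, adjusted p = 0.00294). Without the 2 arrays farthest from the median of Prph r was 0.84, and on deviations from the group means it was 0.95. Mbp fell into separate clusters, with mutant F13 and wild types F15 and F17 above a gap of 44.2% of its range, so no Pearson correlation of Mbp with another gene over all arrays is given. Those 3 arrays had Th levels of 5.55, 4.33 and 6.41. By rank over all 10 arrays Mbp followed Prph (rho = 0.92, permutation p = 0.00053, adjusted p = 0.00556 over 21 pairs of members). It also followed Th by rank (rho = 0.83, permutation p = 0.00483, adjusted p = 0.0338). Over the 7 arrays below the gap Mbp correlated with Prph at r = 0.76 (permutation p = 0.016, adjusted p = 0.22 over 18 tests). With Th it gave r = 0.35 there (permutation p = 0.484, adjusted p = 0.544), and neither passed the adjusted test on those 7 arrays. No other pair among Pmp22, Sox10, S100b, Ncam1, Prph and Th passed; the nearest was Ncam1 with S100b at r = -0.71 (permutation p = 0.0221, adjusted p = 0.116).

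**Figure D3:**
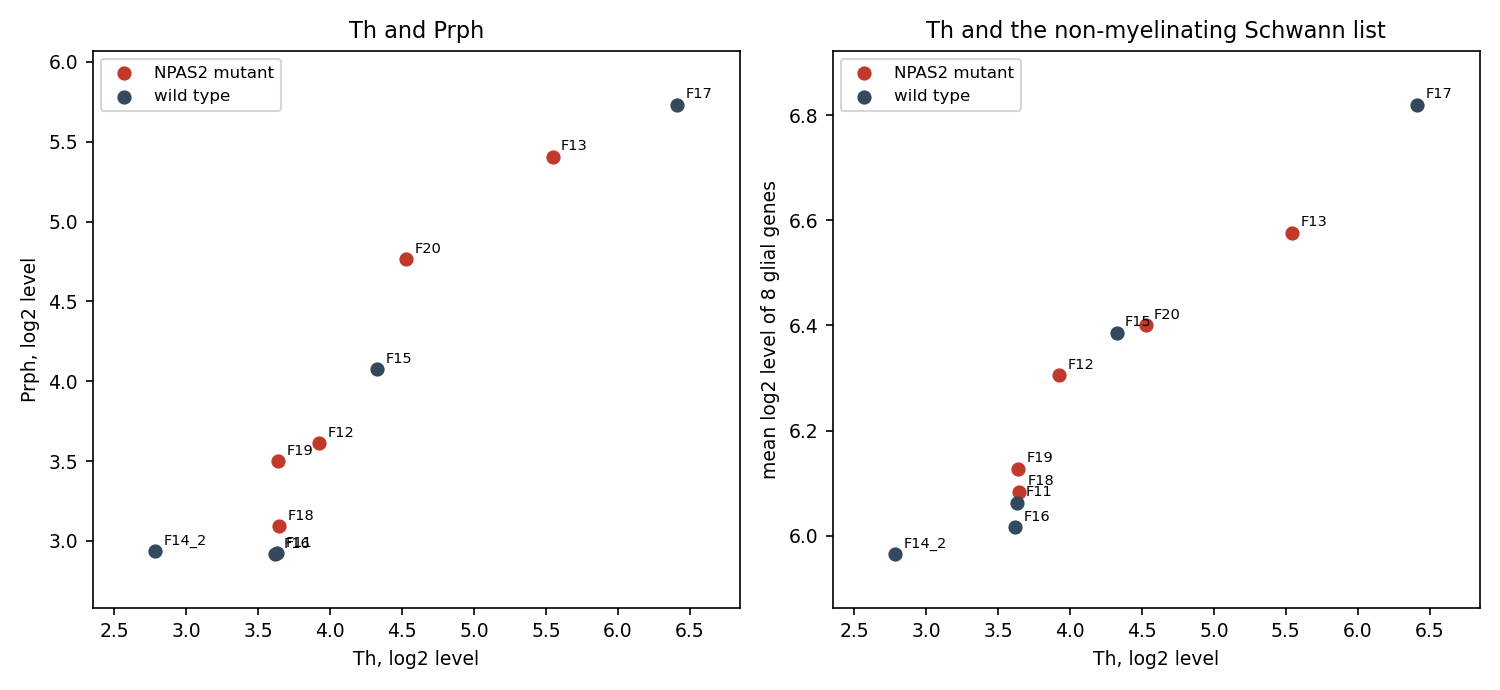
Log2 level of Prph (left) and mean log2 level of the 8 tested genes of non-myelinating Schwann cells and glia (right) against the log2 level of Th, 1 point per array, with NPAS2 mutant arrays in red and wild type arrays in dark blue. Wild type F17 and mutant F13 are highest on all 3 measures, and arrays of both genotypes lie at the low end.

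Ranked over the 7 genes, mutant F13 and wild type F17 were each among the 2 highest arrays for 5 genes. Wild type F17 was the highest array for 4 genes and mutant F13 for 2. The high arrays thus came from both genotypes.

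Genes with related roles in nerve were read on the same arrays. Of 75 companion genes in 5 lists, 38 were tested, 27 were below the filter and 10 were not analysed here. The test called 0 of the 38, with a lowest adjusted p of 0.0674, while 27 were higher and 11 lower in mutants, with a median difference of 0.08. Over all 10945 genes tested, 55.9% were lower in mutants and the median difference was -0.02. The companion genes were read on the same arrays, so their directions, here and by list below, are not separate evidence. At an unadjusted p below 0.05 there were 3 of 38, or 7.89%, against 15.3% of all probe sets tested.

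Of 13 analysed genes of noradrenaline handling and sympathetic neurons, 11 were tested and 8 were higher and 3 lower in mutants, with a median difference of 0.13. Npy, a peptide that sympathetic nerves release with noradrenaline, averaged 6.34 ± 1.72 in mutants and 5.29 ± 2.22 in wild types (SD, n = 5 each), a difference of 1.06 with an SE of 1.08 and an adjusted p of 0.649. Npy covered 4.29 to 8.13 in mutants and 3.17 to 8.50 in wild types. Slc6a2, the transporter that takes noradrenaline back into the axon, covered 4.33 to 6.87 in mutants and 2.60 to 7.79 in wild types, and its difference of 1.04 had an adjusted p of 0.617. Dbh, which turns dopamine into noradrenaline, covered 3.34 to 5.57 in mutants and 2.78 to 6.63 in wild types. Ddc, the enzyme before it, covered 3.30 to 6.86 in mutants and 3.01 to 7.41 in wild types. The low ends of Dbh and Ddc in wild types lay below the array medians. So did Slc6a2 on wild types F11, F14_2 and F16, at 2.60, 2.73 and 2.90. Wild type F17 was highest for 8 of these 11 genes and mutant F13 for 2. For Npy and Slc6a2 the groups overlapped.

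Of 8 tested genes of axons and neurons, 7 were higher and 1 was lower in mutants, with a median difference of 0.13. Snap25, a protein of vesicle release, differed by 0.28 with an adjusted p of 0.893, and covered 2.71 to 6.18 in mutants and 2.65 to 6.51 in wild types. Ret, a receptor for neurotrophic factors, differed by 0.33 with an adjusted p of 0.689. The neurofilament genes Nefl, Nefm and Nefh were below the filter.

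Of 8 tested genes of non-myelinating Schwann cells and glia, 6 were higher and 2 were lower, with a median of 0.05. Cryab differed by 0.33 (adjusted p = 0.426) and Ptprz1 by -0.30 (unadjusted p = 0.0223, adjusted p = 0.247). Cryab was highest on mutants F12, F19 and F20 (11.12, 10.41 and 10.40) and wild type F16 (10.18). Those arrays also had the highest means of the skeletal muscle genes described below. Cryab was lowest on mutant F13, at 9.82. The part of muscle in the Cryab difference was not tested. Of 20 analysed genes of myelin and Schwann cells only 8 were tested, 4 higher and 4 lower, with a median of -0.01. Lgi4, a secreted protein that Schwann cells need to myelinate, differed by 0.24 (adjusted p = 0.462). Cdh19, a cadherin of Schwann cells, differed by -0.21 (adjusted p = 0.826). Mal, a membrane protein of myelin, read 3.54, 4.64, 3.36, 3.54 and 3.62 in mutants and 3.45, 3.26, 4.40, 3.76 and 4.70 in wild types. Its highest arrays were mutant F13 and wild types F15 and F17, as for Mbp. Its difference of -0.17 had an adjusted p of 0.807. Cnp, an enzyme of myelin, differed by -0.13 (adjusted p = 0.691), Egr2, the transcription factor of myelination, by 0.05 (adjusted p = 0.717) and Cadm4, an adhesion molecule, by 0.14 (adjusted p = 0.716). Other defining genes of myelinating Schwann cells, among them Mag, Gjb1, Drp2 and Dhh, were below the filter.

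Of the nerve sheath genes 3 were tested. Slc2a1, the glucose transporter of perineurial cells and of many other cells, read 8.18 ± 0.08 in mutants and 8.51 ± 0.09 in wild types (SD, n = 5 each), and the groups did not overlap. The difference was -0.33 log2 units (SE 0.06, unadjusted p = 0.00026, adjusted p = 0.0674 with limma), which did not pass. Cldn1, a tight junction protein, differed by 0.31 with an adjusted p of 0.443. Sox9, a transcription factor, differed by 0.21 (unadjusted p = 0.0192, adjusted p = 0.235). Slc2a1 and Ptprz1, both lower in mutants, and Sox9, higher in mutants, were the 3 companion genes at an unadjusted p below 0.05.

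**Figure D4:**
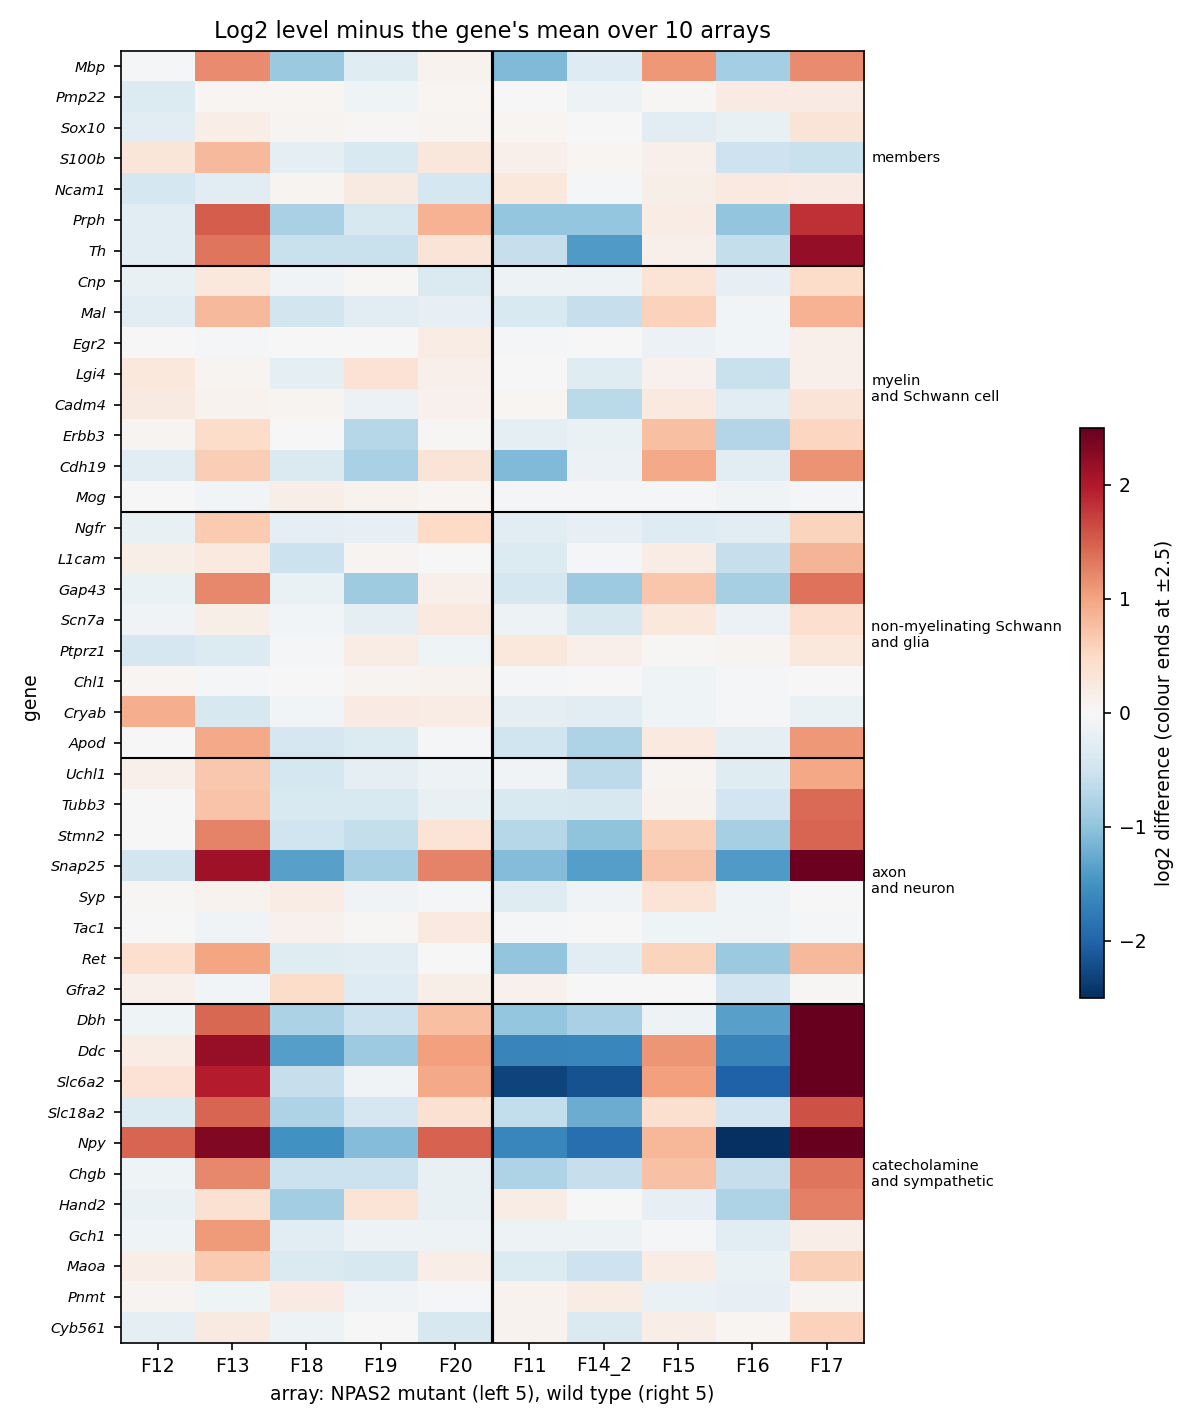
Log2 level of the 7 genes and of the tested genes of 4 nerve lists on each array, minus the gene's own mean over the 10 arrays (colour scale in log2 units, red above and blue below the mean), with NPAS2 mutant arrays at the left and wild type arrays at the right. Mutant F13 and wild type F17 are above the mean for most genes of noradrenaline handling and axons.

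**Figure D5:**
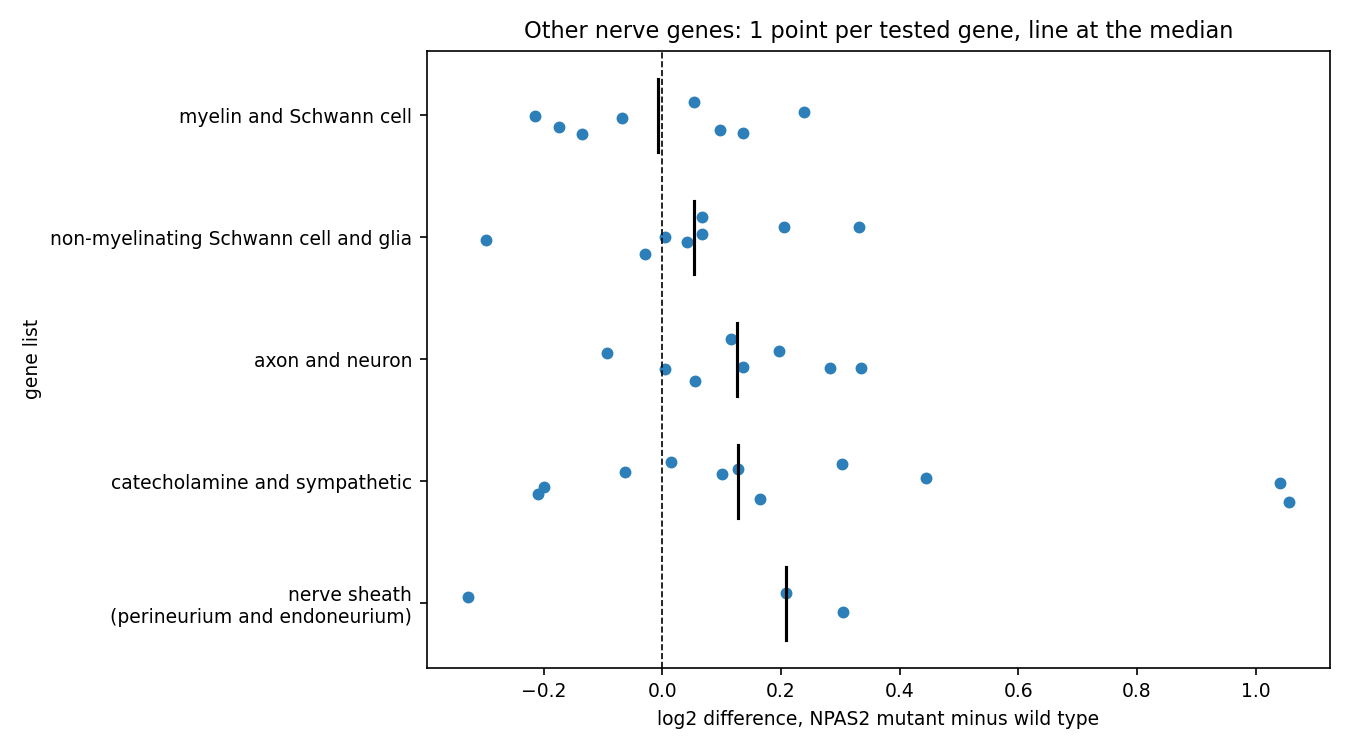
Difference in log2 level, NPAS2 mutant minus wild type, for each tested gene of the 5 nerve lists, 1 point per gene, with a line at the median of each list. The medians lie between -0.01 and 0.21, and the points farthest to the right are Npy and Slc6a2.

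Over the 10 arrays Th followed the mean of the glia list (r = 0.97, permutation p = 1e-05, the smallest that these resamples can give, adjusted p = 0.00028 over 84 pairs; rho = 0.99, permutation p = 1e-05, adjusted p = 0.00084). It followed the noradrenaline list (r = 0.95, permutation p = 2e-05, adjusted p = 0.000336; rho = 0.96, permutation p = 5e-05, adjusted p = 0.00084) and, with the lowest r of the nerve lists that passed, the myelin list (r = 0.88, permutation p = 0.00069, adjusted p = 0.00527; rho = 0.95, permutation p = 0.0001, adjusted p = 0.0012). Without the 2 arrays farthest from the median of Th these r were 0.91, 0.84 and 0.74. Prph gave r = 0.98 with the noradrenaline list (permutation p = 1e-05, adjusted p = 0.00028; rho = 0.98, permutation p = 4e-05, adjusted p = 0.00084) and 0.92 without its 2 farthest arrays. These list means hold neither Th nor Prph, and all were read on the same arrays. By rank Mbp passed with every nerve list, with the lowest rho, 0.83, for the myelin list (permutation p = 0.00509, adjusted p = 0.0285). Pmp22, Sox10, S100b and Ncam1 passed with none of the nerve lists, by r or by rank.

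Markers of other tissues were read on the same arrays. Th correlated with the white fat list at r = 0.80 (permutation p = 0.00596, adjusted p = 0.0358; rho = 0.75, permutation p = 0.0175, adjusted p = 0.0701) and Prph at r = 0.78 (permutation p = 0.00796, adjusted p = 0.0446; rho = 0.73, permutation p = 0.0207, adjusted p = 0.0758). Without the 2 farthest arrays these were 0.36 and 0.35, so the relation of Th and Prph with that list rests on those arrays. By rank Mbp passed with the white fat list (rho = 0.83, permutation p = 0.00497, adjusted p = 0.0285), which Th and Prph did not. The white fat mean was 9.87 ± 0.26 in mutants and 9.87 ± 0.20 in wild types (SD, n = 5 each). Of the 8 genes in that mean, Nnat had the widest range, 2.71 log2 units. Its highest readings were 8.10 on wild type F17 and 7.33 on mutant F13, the arrays also highest for Th and Prph. Against the smooth muscle list both genes passed by rank only (rho = -0.79 each, permutation p = 0.00929 for Th and 0.00881 for Prph, adjusted p = 0.0459 for both), with r = -0.55 for Th (permutation p = 0.106, adjusted p = 0.329) and r = -0.67 for Prph (permutation p = 0.0327, adjusted p = 0.13). The smooth muscle mean lay between 10.59 and 10.91 in mutants and between 10.73 and 11.04 in wild types. The part of these tissues in the spread of the nerve markers was not tested.

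The mean of 14 skeletal muscle genes spread from 3.38 to 10.34 in mutants and from 3.32 to 9.21 in wild types, and all 14 were higher in the mutant mean with 0 called. No member passed a correlation with it. Genes of the adrenal gland, a source of Th outside nerves, were read as well. Of 5 adrenal cortex genes 1 was tested, Cyp11a1, at 3.34 to 3.92 in mutants and 3.33 to 3.41 in wild types. Pnmt, which makes adrenaline, was at 4.15 to 4.45 in mutants and 4.05 to 4.43 in wild types, and it was not high on mutant F13 or wild type F17, which read 4.15 and 4.32. Chga, a protein of secretory granules abundant in adrenal medulla, was below the filter. Chgb, which adrenal medulla and sympathetic neurons both make, read 3.04 to 4.77 in mutants and 2.80 to 4.91 in wild types, with the highest levels on F13 and F17. The part of adrenal tissue in these levels was not tested.

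The genes whose level over the 10 arrays was most like that of each member, by Pearson correlation among all tested probe sets, are given without a test. For Prph they were Slc6a2, Snap25 and Dbh (r = 0.99, 0.99 and 0.98). For Th they were Slc18a2, the vesicle transporter of noradrenaline, Apod and Syt4 (r = 0.97, 0.96 and 0.96). For Mbp, whose arrays fall into clusters, they were Chgb, Stmn3 and Stmn2, with rank correlations of 0.94, 0.95 and 0.94. The lists differed for the remaining members. They were Fam118a, Ano6 and Tram2 for Ncam1 (r = 0.99, 0.97 and 0.97), Mme, Abhd17a and Samm50 for S100b (r = 0.96, 0.95 and 0.94), Zfp87, Rhobtb2 and Lysmd2 for Pmp22 (r = 0.96, 0.95 and 0.94), and Nup188, Pomt2 and Rbm7 for Sox10 (r = 0.93, 0.90 and 0.89).

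The remaining 8 probe sets of Mbp, Ncam1, Sox10 and Prph were too dim to be tested in the fit and read 1.74 to 3.01 log2 units. Each was compared by an exact two-sided permutation test, whose smallest possible p with 5 arrays against 5 is 0.00794. The lowest exact p was 0.0159, for Sox10 probe set 1424985_a_at, at 2.95 ± 0.05 in mutants and 2.86 ± 0.05 in wild types (SD, n = 5 each), with groups that overlapped, and the highest exact p was 0.611. Npas2 itself, read by probe set 1421037_at, was 3.43 ± 0.03 in mutants and 3.71 ± 0.24 in wild types (SD, n = 5 each), a difference of -0.28 with an adjusted p of 0.249 with limma. On that probe set wild types F11 and F17 read 3.44 and 3.48, against 3.38 to 3.47 in mutants. A second Npas2 probe set, 1421036_at, was below the filter. It read 2.38 ± 0.08 in mutants and 2.37 ± 0.09 in wild types (SD, n = 5 each). The part of the transcript that the mutation affects was not given, so these readings do not check the labels.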

How the data were processed

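Total RNA from mouse aorta was labelled with biotin and hybridised to 10 Affymetrix MOE 430V2 arrays, 5 NPAS2 mutant and 5 wild type, per the labels' protocols. The deposited table holds 1 log2 value per probe set and array, from 1.10 to 14.74. GCRMA and MAS5 are both listed in the submitters' processing notes, with no word on which made the values. The upper quartiles of the arrays lay between 5.40 and 5.55, and the values were used as deposited. Scan dates were not given, so scanning could not be used as a batch.

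Probe sets were named through the platform annotation: 34945 had 1 gene, 932 several and 9160 none. Symbols of 34741 were updated by gene ID. Control probe sets (64 of 45101) were left out, and 22340 probe sets above their array's median on at least 5 arrays were tested with limma 3.58.1 in R 4.3.3 (lmFit and eBayes, Benjamini-Hochberg adjustment over all tested). A gene in a list entered with its tested probe set of highest mean. Correlations used 100000 permutations (scipy 1.17.1). Without known signal over background per probe set, the number of arrays limits the precision. On simulated data the fit called 52 of 100 changes of 0.5 log2 units and 89 of 100 changes of 1 log2 unit, with 6 false calls. Those changes were placed on probe sets drawn at random from all tested. The rates therefore do not hold for Mbp, Prph and Th, whose brightest probe sets spread far more within groups than most.

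The members and lists were chosen with earlier results of these data known. Named were every member probe set, the 2 genes of largest absolute change in each list, the 3 genes most like each member, and Npas2; other genes were named after their values had been seen.

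Alternatives covered the filter, normalisation, moderation, per-probe-set analysis of variance, array weights, leaving out each array, and fat or muscle list means as covariates.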

Additional observations from a re-analysis of the deposited data

Results flagged for a closer look

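Within groups of 5 arrays, 9 of 52 groups examined held an array farther from the others than Dixon's test allows at the 95% level. Chance gives about 1 in 20 for normally distributed values. The groups share genes and arrays, so they are not separate evidence. The share over all probe sets was not counted, so no excess in these genes can be read from this. For Mbp, mutant F13 read 5.77 with probe set 1454651_x_at, where the other mutants read 4.81 to 4.87, and 6.09 with 1419646_a_at, where they read 3.92 to 4.49. Wild type F16 read 3.86 with Mbp probe set 1425264_s_at, where the other wild types read 4.61 to 4.66. For Prph probe set 1420256_x_at, mutant F20 read 3.55 against 3.42 to 3.46 on the other mutants, and wild type F14_2 read 4.20 against 3.28 to 3.44 on the other wild types. The remaining 4 were in probe sets too dim to be tested. Wild type F14_2 read 2.26 for Mbp 1425263_a_at (others 2.43 to 2.48) and 2.71 for Ncam1 1425126_at (others 2.41 to 2.47). Mutant F12 read 2.48 for Ncam1 1450438_at (others 2.02 to 2.05), and wild type F16 read 2.76 for Sox10 1424985_a_at (others 2.86 to 2.90).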

How the results depend on the processing

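The count of 0 called probe sets among the nerve markers held under all 22 alternatives, with 0 to 5 of them at an unadjusted p below 0.05 and a lowest adjusted p of 0.100 (Ncam1 1439556_at without mutant F19) to 0.662 (brown fat mean as a covariate). The count over all probe sets tested, 48, depended more on the setting: it was 17 with no filter on dim probe sets, 141 with a filter at the 75th percentile, 13 by one-way analysis of variance, 7 with the skeletal muscle mean and 1 with the brown fat mean as a covariate, and 9 to 43 when 1 array was left out (9 without wild type F16, 43 without wild type F14_2). Leaving out together the 4 arrays of highest skeletal muscle mean (mutants F12, F19 and F20 and wild type F16), an alternative added after the data were seen, left 2 mutant and 4 wild type arrays and 0 calls with limma, with 1549 at an unadjusted p below 0.05. The cause was not tested. Leaving out 1 array moved the difference of Th between -0.24 and 0.67, of Prph between 0.02 and 0.86, of Mbp between -0.29 and 0.30 and of Ncam1 1426865_a_at between -0.43 and -0.27. With the brown fat mean as a covariate the difference of Pmp22 was 0.20 and of S100b -0.60, neither of which passed. That mean did not overlap between the groups, so this covariate and genotype cannot be told apart cleanly. No paired analysis was possible because no replicate identifier in the labels occurs in both groups.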
